A study of Mus musculus with 8 samples.

Results

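The genes described here build, coat and empty the lipid droplets of the liver cell, together with Pparg, the nuclear receptor that switches several of them on in fatty liver. They were chosen by symbol, as the 10 rows of the deposited count table named Cidea, Cideb, Cidec, Plin2, Plin3, Plin4, Plin5, G0s2, Pnpla2 and Pparg, out of 31910 rows. All 10 have a row, 9 have counts above 0, and 8 also have a row in the deposited FPKM table of 9265 rows. The samples are 8 mouse liver RNA libraries, 4 labelled with the agent AAV2/9-Ctrl (Ctrl) and 4 with AAV2/9-SA (SA), where AAV2/9 is an adeno-associated viral vector. Per the series design, 4.8e10 vector genomes per mouse were injected into the tail vein after 7 weeks of feeding. The design names a chow diet, a high-fat diet of 24 weeks and, to induce steatohepatitis, a diet with 42% fat and 0.2% cholesterol plus sugared water for 16 weeks. The labels do not say which diet, sex or age a library's mouse had, nor which promoter drove the vector's gene. The series title names a protein of bacterial origin directed at acetyl-CoA carboxylase, the enzyme that makes malonyl-CoA for fatty acid synthesis. The question put to these genes is whether the droplet machinery differed after AAV2/9-SA.

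A lipid droplet is a core of triglyceride and cholesterol ester under a single layer of phospholipid. Perilipins coat that layer and control which enzymes reach the core. CIDE proteins sit where droplets touch and let neutral lipid pass from the smaller to the larger droplet. Pnpla2 encodes adipose triglyceride lipase, which takes the first fatty acid off a triglyceride, and G0s2 encodes a small protein that inhibits it. Pparg is best known as the master regulator of fat cells, and its amount rises in steatotic hepatocytes, where Cidea, Cidec and Plin4 are among its known targets.

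PPAR receptors bind, as a pair with RXR, to a direct repeat of AGGTCA with any single base, N, between its copies. RefSeq promoter entries on GRCm38.p6 were found for 9 of the 10 members, and Cidea has none. The 250 bases before each listed start were searched for the motif on both strands, counting how many of its 12 fixed letters differ. At most 3 letters differed in 1 start each of Cidec, Plin2, Plin3 and Plin5, that is 4 of 9 members, against 23.7% of all 27025 symbols searched the same way. Plin2 had the closest match, with 2 letters differing, and 3.24% of all 32851 windows come that close. Examples were picked with the means known, and Plin3, also with a lower mean in SA, is not shown. The windows shown are those of Cidec and Plin2, with a lower mean in SA like Pparg, and of Plin5, with a higher one. They lie upstream of the genes, on the minus strand, at chr6:113435761-113436010, chr4:86670060-86670309 and chr17:56117549-56117798. Capitals mark the closest match. A match of letters is a description and not evidence of binding.
Cidec: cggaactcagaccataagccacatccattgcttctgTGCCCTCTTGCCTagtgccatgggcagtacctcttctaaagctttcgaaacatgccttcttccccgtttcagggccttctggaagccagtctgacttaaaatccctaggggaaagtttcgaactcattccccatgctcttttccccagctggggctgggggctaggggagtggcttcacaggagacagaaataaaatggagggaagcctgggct
Plin2: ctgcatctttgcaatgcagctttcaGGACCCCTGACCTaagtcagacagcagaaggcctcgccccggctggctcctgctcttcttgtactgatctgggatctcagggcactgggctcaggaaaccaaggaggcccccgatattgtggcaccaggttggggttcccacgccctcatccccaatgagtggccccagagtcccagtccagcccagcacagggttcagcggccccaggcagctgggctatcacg
Plin5: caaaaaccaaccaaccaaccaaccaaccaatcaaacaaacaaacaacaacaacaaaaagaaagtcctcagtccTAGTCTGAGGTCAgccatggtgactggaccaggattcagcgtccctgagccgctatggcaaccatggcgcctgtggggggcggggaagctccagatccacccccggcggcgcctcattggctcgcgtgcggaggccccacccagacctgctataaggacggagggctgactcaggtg
The match lies 214 to 202 bases before the start in Cidec, 225 to 213 in Plin2 and 177 to 165 in Plin5, on the opposite strand in the first pair and on the gene's own strand in Plin5. No start of Pparg, Plin4, G0s2, Pnpla2 or Cideb had a match with 3 or fewer differing letters.

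Total counts were 14114145 to 15922829 in 7 libraries and 28184001 in SA 4, which gives that library less counting error. Mitochondrial transcripts took 9.23% of counts in Ctrl 4 and at most 4.87% elsewhere. The 8 hepatocyte markers passed the filter on low counts. Of the adipocyte markers, Lep and Ucp1 were at 0 in every library and Adipoq and Plin1, the perilipin of fat cells, had 3 counts each over all libraries. Other genes of that list had counts, with Car3 at 1162 to 3268 CPM, Cfd at 10.7 to 119 CPM and Adrb3 at 4.62 to 16.0 CPM. Which cells these counts came from was not tested. The 6 skeletal muscle markers together reached at most 0.207 CPM. In bulk tissue, fewer cells of a type and less RNA per cell cannot be told apart.

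Of the 9 members tested, 7 had a lower and 2 a higher mean in SA, with a median log2 fold change of -0.30 against -0.01 over all 12358 genes tested. Levels here are CPM, counts scaled to library size, with the TMM correction for differences in library makeup. None of the 9 passed the test at an adjusted p under 0.05 (edgeR quasi-likelihood test, Benjamini-Hochberg over all genes), where 2 genes in all passed (0.0162%). That total was 0 without Ctrl 4 and 19 without SA 1. DESeq2, which called 0.346% of its genes, and limma-voom also called 0 members. At an unadjusted p under 0.05 edgeR gave 4 members, against 6.21% of all genes. They were Cidea, Cidec and Pparg, lower in SA (3.29% of all genes), and Plin5, higher (2.91%). The SA libraries lay wholly below the Ctrl libraries in Cidec and Pparg, against 1.46% of all genes. No member had all SA libraries above, as 1.66% of genes did, which makes 3.12% in either direction.

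Pparg, the receptor itself, was lower in every SA library than in any Ctrl library. Its level was 26.5, 21.6, 18.3 and 19.5 CPM across Ctrl 1 to 4 and 13.5, 12.1, 14.5 and 18.1 CPM across SA 1 to 4. SA 4 came within a fraction of a CPM of Ctrl 3. Ctrl averaged 21.5 ± 3.63 CPM and SA 14.5 ± 2.56 CPM (SD, n = 4 in each group). The log2 fold change was -0.56 ± 0.18 (SE, adjusted p = 0.541 by edgeR). It ranged from -0.69 without SA 4 to -0.45 without Ctrl 1. Exons of Pparg are 17.4% inside the span of an antisense gene model, Gm44079, and none of their bases are in its exons.

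Among the CIDE genes, both fat-inducible members had lower means in SA. Cidec, which enlarges droplets where they touch, was at 263, 183, 162 and 178 CPM across Ctrl 1 to 4. Across SA 1 to 4 it was at 131, 105, 50.5 and 125 CPM. No SA library reached the lowest Ctrl library, and SA 3 was the lowest of all. Means of 197 ± 45.3 CPM and 103 ± 36.6 CPM (SD, n = 4) gave a log2 fold change of -0.94 ± 0.26 (SE, adjusted p = 0.442 by edgeR). The lowest adjusted p over the 15 alternatives on counts was 0.0859, with DESeq2, and the highest was 0.998.

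Cidea, the member typical of brown fat, was the most variable of the 9 across libraries, 10.6-fold from lowest to highest. It was at 52.3, 81.6, 37.2 and 30.5 CPM across Ctrl 1 to 4 and 43.5, 27.9, 7.68 and 12.7 CPM across SA 1 to 4. SA 1 lay above Ctrl 3 and Ctrl 4, so the groups overlapped, and SA 2, SA 3 and SA 4 lay under every Ctrl library. The log2 fold change was -1.14 ± 0.45 (SE, adjusted p = 0.71 by edgeR), -0.80 without Ctrl 2 and -1.65 without SA 1. Within SA, the order of Cidea and that of Cidec shared SA 1 at the top and SA 3 at the bottom.

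Cideb, the CIDE gene that hepatocytes use for lipoprotein assembly, had few counts. Its raw counts were 148, 132, 99 and 51 across Ctrl 1 to 4 and 116, 92, 74 and 173 across SA 1 to 4. In CPM it was at 7.21 ± 2.95 in Ctrl and 6.23 ± 1.14 in SA (SD, n = 4), with overlapping groups. The log2 fold change of -0.21 ± 0.29 (SE, adjusted p = 0.996 by edgeR) was smaller than its error.

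The perilipins did not move as a group. Plin2, the main coat protein of hepatocyte droplets and a common gauge of liver fat, was at 1273, 1011, 880.0 and 1086 CPM across Ctrl 1 to 4. It was at 1094, 745, 870.0 and 746 CPM across SA 1 to 4. SA 2, SA 3 and SA 4 lay under every Ctrl library, and SA 1 lay second highest of all 8. Its log2 fold change was -0.30 ± 0.18 (SE, adjusted p = 0.94 by edgeR). Plin4, a coat protein of nascent droplets, was at 47.9, 29.0, 46.8 and 37.3 CPM across Ctrl 1 to 4 and 36.6, 21.3, 22.9 and 39.3 CPM across SA 1 to 4. The groups overlapped, with a log2 fold change of -0.42 ± 0.23 (SE, adjusted p = 0.912 by edgeR).

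Plin5, which ties droplets to mitochondria and holds the lipase in check, had a higher mean in SA. It was at 80.2, 80.1, 80.9 and 65.7 CPM across Ctrl 1 to 4 and at 97.1, 110.0, 77.7 and 103 CPM across SA 1 to 4. SA 3 lay inside the Ctrl range, and the other SA libraries lay above all Ctrl libraries. The log2 fold change was 0.34 ± 0.15 (SE, adjusted p = 0.776 by edgeR), and 0.27 without Ctrl 4, the low Ctrl library. Plin3, the exchangeable coat protein found in most cells, ranged from 35.1 to 74.1 CPM in Ctrl and from 44.4 to 70.3 CPM in SA. Its log2 fold change was -0.09 ± 0.22 (SE, adjusted p = 0.996 by edgeR) and turned to 0.05 without Ctrl 1.

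Pnpla2, the triglyceride lipase, was the steadiest member. Its lowest and highest libraries, 119 CPM in Ctrl 1 and 136 CPM in SA 4, were 1.14-fold apart. Averages of 124 ± 5.36 CPM for Ctrl and 129 ± 7.02 CPM for SA (SD, n = 4) gave a log2 fold change of 0.06 ± 0.12 (SE, adjusted p = 0.996 by edgeR).

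**Figure D1:**
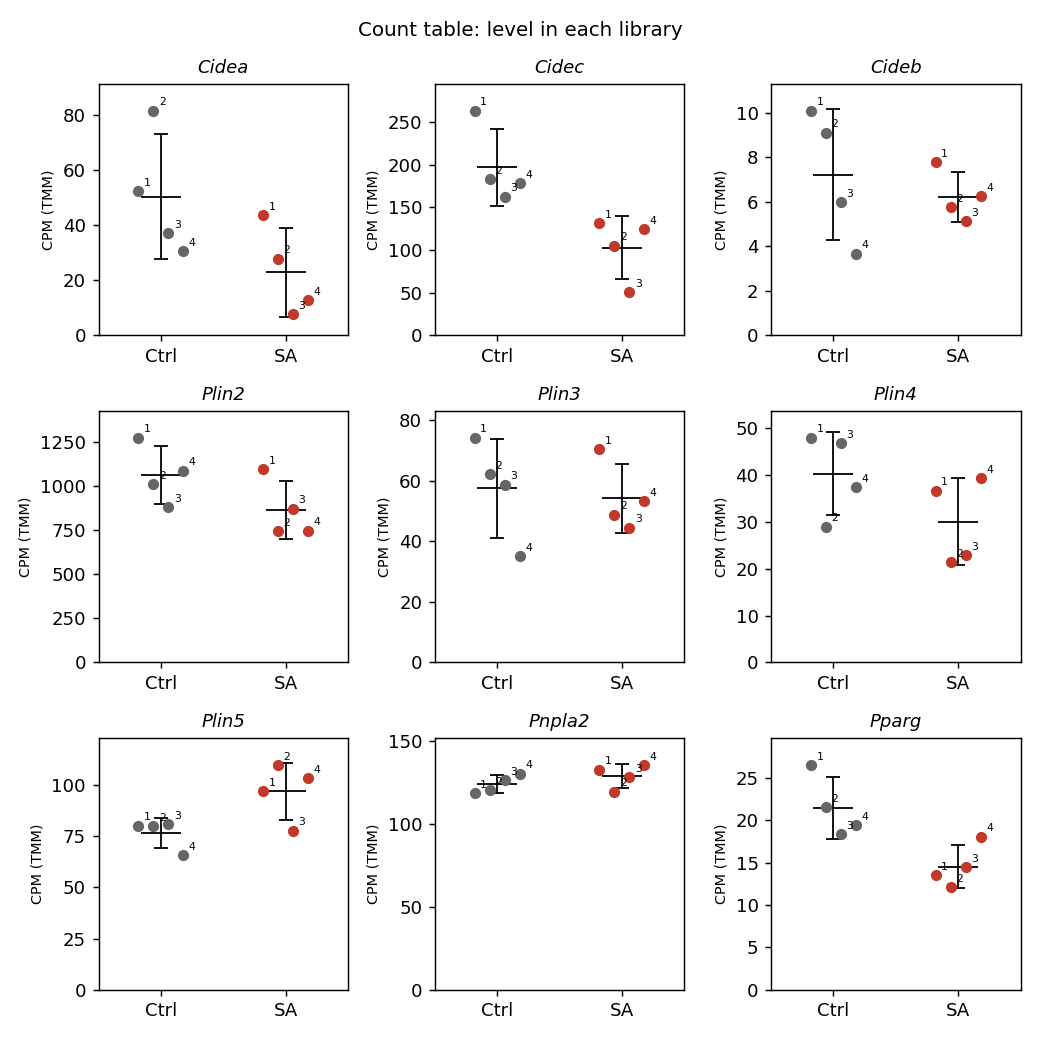
CPM (vertical axes, from 0) of the 9 members with counts in the 4 Ctrl (grey) and 4 SA (red) libraries, numbered by replicate; bars are means and SD. The SA points of Cidec and Pparg all lie under the Ctrl points, while Plin5 is higher in SA 1, SA 2 and SA 4 and Pnpla2 stays between 119 and 136 CPM.

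G0s2, the lipase inhibitor, was listed at 0 counts in all 8 libraries and could not be tested on counts. The FPKM table, in which the authors gave fragments scaled for transcript length and library size, lists it as abundant. Its FPKM was 437, 365, 385 and 146 across Ctrl 1 to 4 and 341, 314, 333 and 338 across SA 1 to 4. The SA libraries were close together, and Ctrl 4 lay far under the other 7 libraries. The means were 333 ± 128 FPKM in Ctrl and 331 ± 12.2 FPKM in SA (SD, n = 4), with a difference of 0.10 ± 0.32 on the log2(FPKM + 1) scale (SE, adjusted p = 0.999 by limma). Without Ctrl 4, an alternative added after seeing the data, it was -0.25 ± 0.10 (SE, adjusted p = 0.81 by limma).

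In the GENCODE vM21 annotation, the exons of G0s2 lie 100% inside the span of Lamb3, a laminin gene on the other strand, and 0% in its exons. The exons of Cideb lie 76.3% inside exons of Nop9, also on the other strand. Cidec, Plin2, Plin3, Plin5 and Pnpla2 overlap no other gene there. Cidea has 21.3% of its exon bases inside the span of B430212C06Rik, a processed transcript on the other strand, and 0% in its exons, and Plin4 shares 0.294% of its exon bases with Hdgfl2. Of 240 coding genes of the FPKM table that lie wholly inside another coding gene, 83.8% had 0 counts in every library. Of those not inside another, 2.21% did. The counting program, its strand setting and its handling of reads that touch 2 genes are not given in the sources used here.

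Cideb also had few counts for its FPKM, though not 0 counts as G0s2 had. It had 0.0225 CPM for each FPKM unit, while the 5 other droplet and lipase members in both tables and Pparg had 1.43 to 3.04. Over 7895 genes with a mean of at least 1 CPM the median was 2.53, and only 13 genes lay under Cideb. By FPKM, which accounts for length, Cideb was among the abundant members, at 323 ± 52.4 in Ctrl and 276 ± 46.6 in SA (SD, n = 4). By CPM it had the lowest mean of the members with counts. Which of the tables is nearer its true level was not tested.

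**Figure D2:**
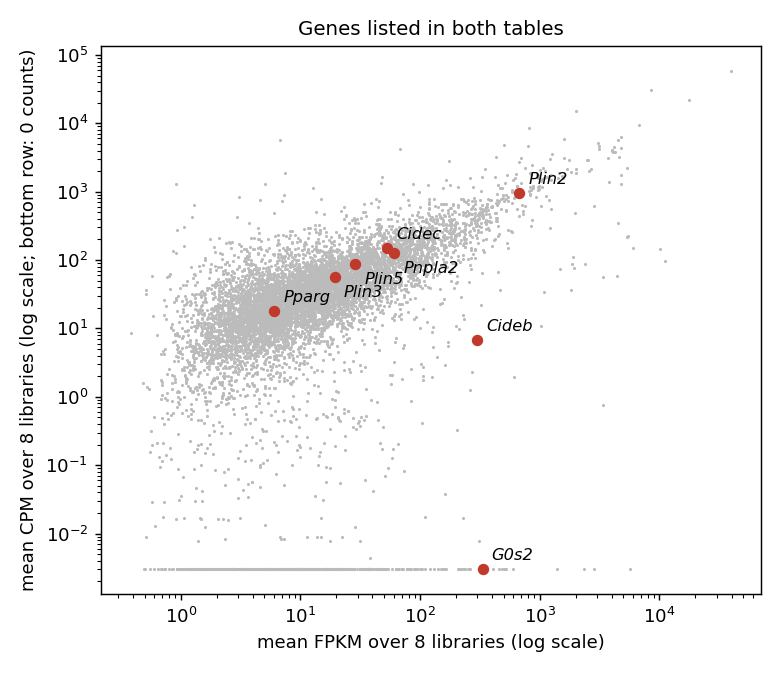
Mean CPM against mean FPKM over the 8 libraries (log axes) for the genes in both tables, members in red; genes with 0 counts are drawn on the bottom row. Pparg, Cidec, Pnpla2 and the 3 perilipins lie within the cloud, Cideb lies well under it at 0.0225 CPM per FPKM and G0s2 is on the bottom row.

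Ordered by mean FPKM over the 8 libraries, Plin2 led at 674 ± 133. It was followed by G0s2 at 332 ± 84.4 and Cideb at 299.7 ± 52.2, which did not differ beyond their spread (SD, n = 8). Pnpla2 at 60.9 ± 6.46 and Cidec at 53.0 ± 33.7 came next and also overlapped. Plin5 at 28.6 ± 10.9 overlapped both Cidec and Plin3, the latter at 19.4 ± 6.11. Pparg was lowest at 6.02 ± 3.84, with its highest library at 10.5 FPKM under the lowest of Plin3 at 10.8 FPKM. Cidea and Plin4 have no FPKM row, so they have no place in this order.

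The FPKM table did not show the lower Cidec and Pparg of the counts. Cidec was at 81.0, 80.9, 37.9 and 3.99 FPKM across Ctrl 1 to 4 and at 104, 54.4, 41.1 and 20.8 FPKM across SA 1 to 4. SA 1, which on counts lay under every Ctrl library, was here the highest of all. On the log2(FPKM + 1) scale the difference was 0.51 ± 0.91 (SE, adjusted p = 0.999 by limma), and -0.41 ± 0.53 without Ctrl 4. Pparg was at 10.2, 6.15, 8.98 and 0.336 FPKM across Ctrl 1 to 4 and at 3.33, 6.76, 1.89 and 10.5 FPKM across SA 1 to 4. Its difference was 0.01 ± 0.73 (SE, adjusted p = 0.999 by limma), and -0.68 ± 0.48 without Ctrl 4.

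The tables also differed in how far libraries lay apart. From lowest to highest library Pparg spanned 31.2-fold in FPKM but only 12.1 to 26.5 in CPM, and Cidec 26.0-fold and 5.22-fold. Plin2 spanned 1.77-fold in FPKM and 1.71-fold in CPM, and Cideb less in FPKM, 1.68-fold, than in CPM, 2.76-fold. Wide FPKM spreads were not particular to members. Hsd17b13 ran from 0.611 to 482 FPKM but from 316 to 580 CPM. Cebpa ran from 0.668 to 451 FPKM but from 436 to 729 CPM. Other listed genes were steady in both, such as Fitm2 at 44.5 to 71.2 FPKM and 124 to 163 CPM. Which table lies nearer the true levels was not tested. Ctrl 4 had the lowest FPKM for 5 of the 8 members, against 34.2% of all FPKM rows. On counts Ctrl 4 was the lowest library for Cideb, Plin3 and Plin5 but not for Cidec or Pparg, and it was the lowest for 34.0% of genes with at least 1 CPM. The libraries were also matched between tables by log2 deviations from each gene's mean over the 8 libraries, not by levels. In these deviations each library's FPKM followed the counts of the same library best in 8 of 8 cases. The match was weak, with r of 0.204 to 0.388 across 5163 genes, which are not independent replicates. Limma on log2(FPKM + 1) called 0 of the 8 members, against 3 of 9255 rows (0.0324%). No member reached an unadjusted p under 0.05 (3.44% of rows) and none had groups that did not overlap (2.05% of rows).

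**Figure D3:**
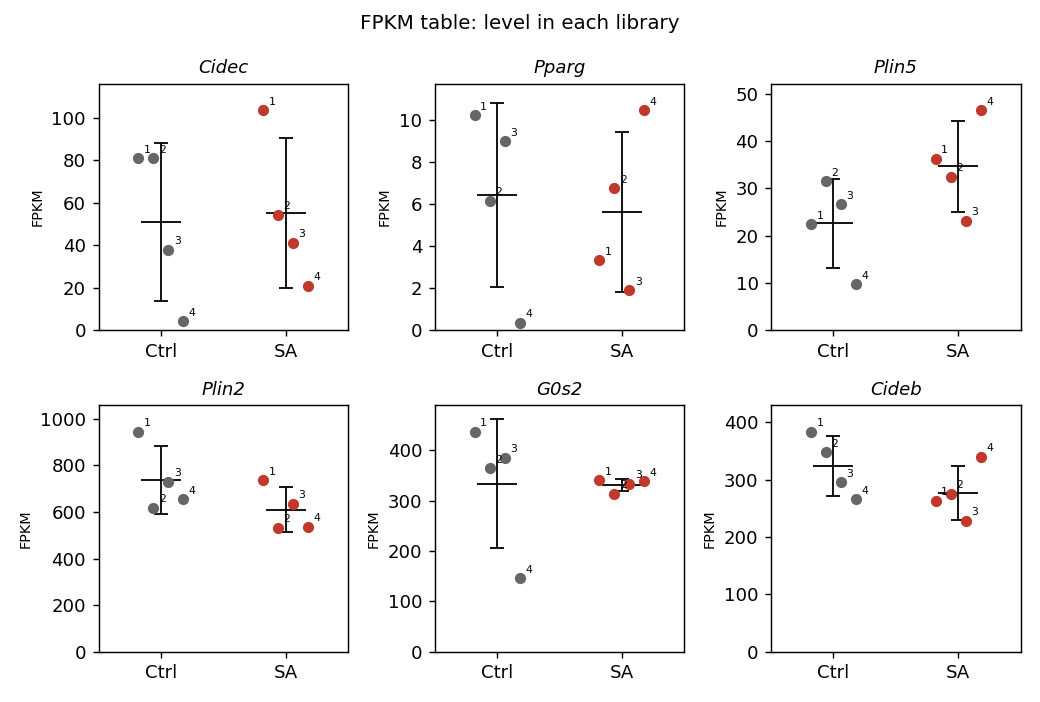
FPKM (vertical axes, from 0) of 6 members in the 4 Ctrl (grey) and 4 SA (red) libraries, numbered by replicate; bars are means and SD. Ctrl 4 is the lowest library for Cidec, Pparg, Plin5 and G0s2. The SA points of Cidec and Pparg overlap the Ctrl points, with SA 1 of Cidec and SA 4 of Pparg above all Ctrl points.

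Plin5 and Plin2 kept their direction in both tables. Plin5 was at 22.6 ± 9.37 FPKM in Ctrl and 34.7 ± 9.71 FPKM in SA (SD, n = 4), a difference of 0.67 ± 0.36 on the log2(FPKM + 1) scale (SE, adjusted p = 0.999 by limma). Plin2 had -0.27 ± 0.18, Plin3 -0.14 ± 0.32, Cideb -0.22 ± 0.17 and Pnpla2 0.07 ± 0.13 on that scale (SE), each of the same sign as on counts.

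**Figure D4:**
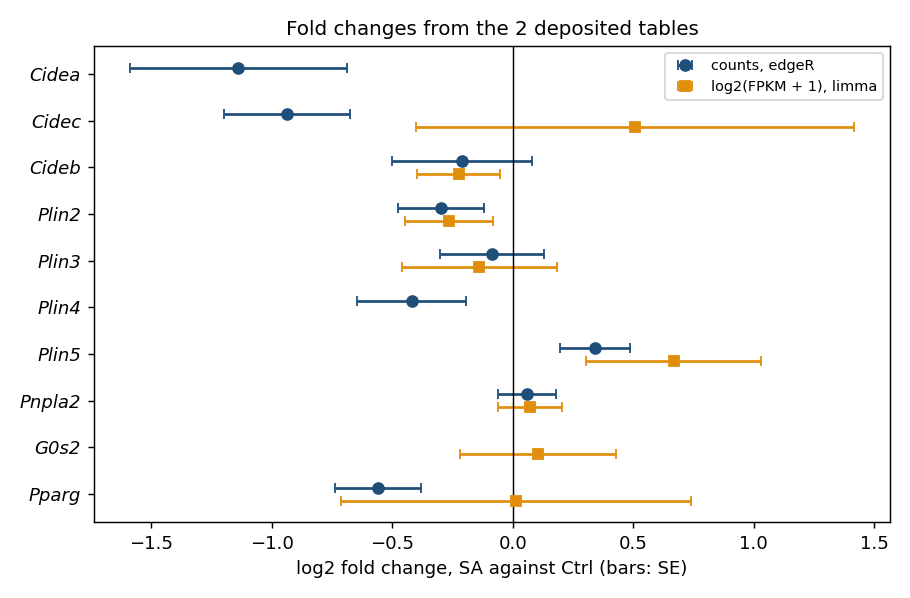
Log2 fold change of SA against Ctrl with SE for each member, from counts with edgeR (circles) and from log2(FPKM + 1) with limma (squares); Cidea and Plin4 have no FPKM row and G0s2 no counts. Cidec and Pparg are negative on counts, at -0.94 and -0.56, and positive on FPKM, at 0.51 and 0.01.

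Across the 8 libraries, Cidec had the highest correlation with Pparg of the 8 other members tested on log2 CPM, but not on FPKM. On log2(FPKM + 1) its r was 0.579, under Plin3 (0.805), Plin5 (0.736) and Cideb (0.702), with Pnpla2 at 0.345 and Plin2 at 0.0793. On log2 CPM its Pearson r was 0.747 (exact permutation p = 0.0283, adjusted p = 0.599 over 12357 genes) and its Spearman rho 0.881 (exact permutation p = 0.00724). Without SA 2 and Ctrl 1, the 2 libraries farthest from the median of Pparg, r was 0.678. Since both genes were lower in SA, the difference between groups enters this value, and 4 libraries are too few for a value within a group. By r, 222 of the 12357 genes ranked above Cidec.

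Plin4 had r = 0.663 and rho = 0.643 with Pparg (exact permutation p = 0.0770 and 0.0962), but r fell to 0.236 without those 2 libraries and rests on them. Plin2 had r = 0.597 and rho = 0.595 (exact permutation p = 0.118 and 0.132), with r = -0.0316 without them. Cidea had r = 0.445 and rho = 0.595 (exact permutation p = 0.272 and 0.132). Plin5 ran the other way, with r = -0.554 and rho = -0.571 (exact permutation p = 0.152 and 0.151), opposite in sign to its r on FPKM. Cideb, Plin3 and Pnpla2 had r of 0.394, 0.283 and -0.276 on log2 CPM, and rho of 0.429, 0.333 and -0.333, with exact permutation p from 0.299 to 0.499. Without SA 2 and Ctrl 1, r was 0.458 for Cidea, -0.367 for Plin5 and -0.505 for Pnpla2, and near 0 or negative for Cideb (0.00377) and Plin3 (-0.197). The adjusted p of these 7 members ranged from 0.635 to 0.890.

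The 5 named genes of at least 1 CPM most like Pparg by r were Camk1 (0.963), Trmt12 (0.962), Stx8 (0.922), Hilpda (0.916) and Ap4s1 (0.909). No gene passed over all genes, the lowest adjusted p being 0.306 (exact permutation, Pearson r), and 7 genes in all had r of at least 0.9. Hilpda, a droplet protein that inhibits the Pnpla2 lipase, is the only listed droplet gene among the 5. Without SA 2 and Ctrl 1 its r was 0.738, and that of the others named was 0.816 to 0.928. Hilpda, like Pparg, had a lower mean in SA, so the difference between groups enters its r.

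**Figure D5:**
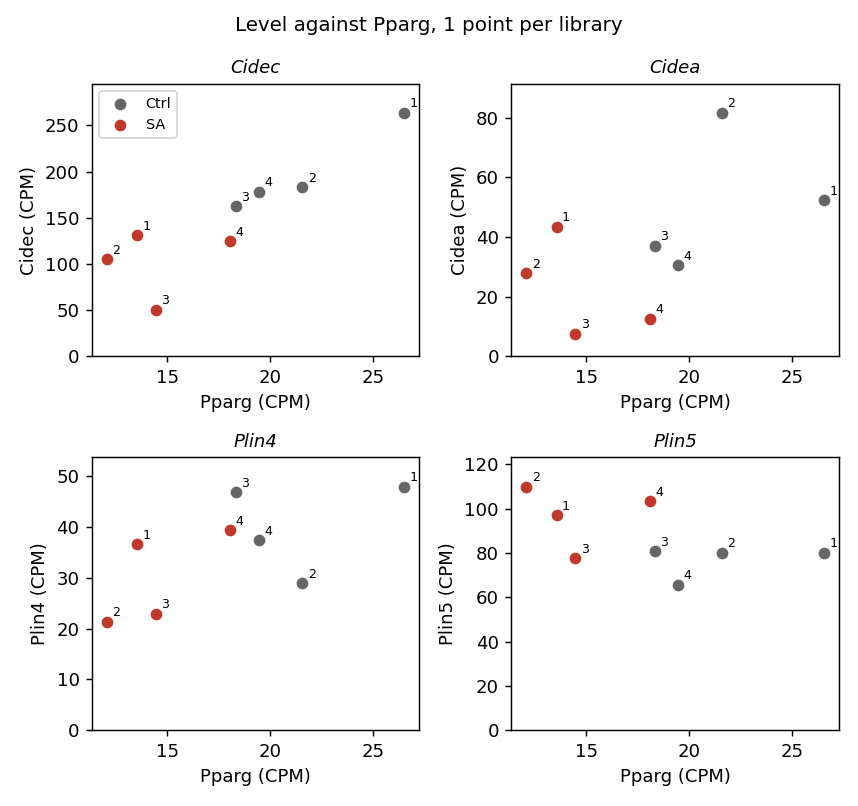
CPM of Cidec, Cidea, Plin4 and Plin5 (vertical axes, from 0) against CPM of Pparg (horizontal axes), 1 point per library, Ctrl grey and SA red with replicate numbers. Cidec runs with Pparg (r = 0.747 on log2 CPM) apart from the low SA 3, and Plin5 runs against it (r = -0.554).

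Other genes of the droplet and of lipolysis had means on both sides. Of 22 listed, 21 were in the count table and 19 were tested, with 7 higher and 12 lower means in SA, a median log2 fold change of -0.09 and none past the threshold. Ces1d, a carboxylesterase that hydrolyses triglyceride in hepatocytes, averaged 508 ± 26.1 CPM over Ctrl and 949.9 ± 499 CPM over SA (SD, n = 4). SA 4 reached 1629 CPM and SA 1, at 428 CPM, lay under all Ctrl libraries. Its log2 fold change was 0.90 ± 0.30 (SE, adjusted p = 0.566 by edgeR), and 0.50 without SA 4. Hilpda averaged 4.30 ± 1.48 CPM over Ctrl and 2.44 ± 0.885 CPM over SA (SD, n = 4), with -0.80 ± 0.33 (SE, adjusted p = 0.743 by edgeR). Acsl3, an acyl-CoA synthetase of nascent droplets, had -0.30. Abhd5, the activator of Pnpla2, had -0.14. Lipe, which encodes hormone-sensitive lipase, was listed at 0 counts in all libraries, like G0s2, and at 8.48 to 17.6 FPKM.

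Other PPARgamma targets of fatty liver leaned lower. Of 13 listed, 11 were tested, 9 with a lower and 2 with a higher mean in SA, with a median of -0.37 and none past the threshold (edgeR). Aqp7, a glycerol channel, was at 3.75, 1.03, 0.845 and 2.73 CPM across Ctrl 1 to 4 and at 0.0723 to 0.268 CPM in SA. Its log2 fold change of -3.55 ± 0.62 (SE, adjusted p = 0.122 by edgeR) passed with DESeq2 (-3.58, adjusted p = 0.000374). Raw counts in SA were 2 to 4 in each library. Fabp4, a fatty acid carrier of fat cells and macrophages, had -0.84 ± 0.29, and -0.44 without Ctrl 1, and Mogat1, an enzyme of triglyceride synthesis, had -0.88 ± 0.33 (SE). Agpat2 was listed at 0 counts and at 199 to 279.8 FPKM.

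Most relatives and cofactors of Pparg had a higher mean in SA. Of the 15 genes tested on that list, 13 had a higher mean in SA, with a median of 0.21 and none past the threshold (edgeR). Rxrb and Fabp1 had lower means, at -0.14 and -0.15. Fabp1, on the same list, is a fatty acid carrier and neither a PPAR receptor nor a cofactor. Rxra, the partner of PPAR receptors on DNA, had 0.32 ± 0.15, Ppargc1b, a coactivator, 0.39 ± 0.24, and Rxrg 0.33 ± 0.22 (SE), with adjusted p from 0.833 to 0.965. On log2(FPKM + 1) Rxra had -0.21. Ppara and Ppard, the other PPAR receptors, had 0.26 and 0.23. Targets of PPARalpha, which shares the binding motif and drives fatty acid oxidation, had a median of 0.06 over 14 tested genes, 10 with a higher mean and none past the threshold. Acot1 had 0.86 ± 0.29, Cyp4a14 1.09 ± 0.52 and Pdk4 -0.29 ± 0.22 (SE), with adjusted p from 0.571 to 0.989.

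Cell type markers moved with these groups as follows, and their part in the lower Cidec, Cidea and Pparg was not tested. All 7 tested stellate cell markers had a lower mean in SA, with summed levels of 386 to 849 CPM in Ctrl and 313 to 391 CPM in SA. Lrat, of the same list, was at 0 counts in all libraries and at 6.06 to 11.4 FPKM. Of 5 bile duct markers 4 were lower, with sums of 34.7 to 133 CPM in Ctrl and 37.1 to 66.0 CPM in SA. Of 10 macrophage markers, 6 had a higher and 4 a lower mean in SA, with sums of 417 to 782 CPM in Ctrl and 553 to 767 CPM in SA. At an unadjusted p under 0.05 (edgeR), 3 macrophage markers, Gpnmb, Trem2 and Lyz2, were lower and 0 higher. Lower at that p were also 4 of the 7 tested stellate cell markers and 3 of the 5 bile duct markers, with 0 higher. The hepatocyte list had 1 higher and 0 lower, and the adipocyte list 1 of each. Over all genes, 3.29% were lower and 2.91% higher at that p. Gpnmb, a marker of lipid-laden macrophages, was at 4.55 to 52.8 CPM in Ctrl and 2.60 to 3.60 CPM in SA, a log2 fold change of -2.93 (adjusted p = 0.227 by edgeR and 0.0132 by DESeq2). Trem2 had -1.24 and Lyz2 -0.54, both with overlapping groups. Of the 8 hepatocyte markers 6 had a higher mean, with overlapping sums of 70928 to 102161 CPM in Ctrl and 66561 to 88805 CPM in SA. Hnf4a, the 1 higher at that p, was at 399 to 527 CPM in Ctrl and 528 to 812 CPM in SA. Its SA libraries all lay above Ctrl, as in 1.66% of all genes. The log2 fold change was 0.61 (adjusted p = 0.425 by edgeR), and 0.76 on log2(FPKM + 1), where the groups overlapped. The adipocyte list had 3 of 9 genes tested and sums of 1237 to 3392 CPM in Ctrl and 1827 to 3023 CPM in SA, almost all of it Car3. Cfd, which encodes the fat-cell protease adipsin, ranged from 45.9 to 119 CPM in Ctrl and from 10.7 to 46.0 CPM in SA, with a log2 fold change of -1.46 (adjusted p = 0.480 by edgeR). Adrb3, a receptor for noradrenaline on fat cells, went the other way, at 0.78 (adjusted p = 0.696 by edgeR), and Car3 had 0.01.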

How the data were processed

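Gene rows of the deposited count table are whole-number counts, not normalized. FPKM values are the authors' own. Tools named in the submitters' processing notes are HISAT2, StringTie 2.2.1 and FastQC 0.19.7, and they list both mm10 and GRCm39 with no role. Samples were grouped by title. Counts were fitted with edgeR 4.0.16 in R 4.3.3 (TMM, filterByExpr, quasi-likelihood F test, no covariate) over 12358 genes, and SE was derived from the fold change and F. The labels do not state that samples are separate animals, so p-values reflect only the spread among these libraries, which may be technical. Log2 CPM for correlations used a prior count of 2, and FPKM rows needed at least 0.5 in 4 libraries. The members and lists were chosen with earlier results of these data known. All members are named, with the 3 smallest p of each related list. Abhd5, Lipe, Agpat2, Ppara, Ppard, Rxrb, Fabp1, Hsd17b13, Cebpa, Fitm2 and Hnf4a were added after their values were seen. The fit was tested on simulated data. Alternatives were DESeq2 1.42.0, limma-voom (limma 3.58.1), RLE and upper quartile factors, other filters, limma on log2(FPKM + 1) or log2(FPKM + 0.1), each library left out, and the replicate number as a block. Promoters come from RefSeq on GRCm38.p6 and gene spans from GENCODE vM21; spans were used for overlaps only, since no source used here ties a build to the counts.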

Additional observations from a re-analysis of the deposited data

Results flagged for a closer look

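Plin5 in Ctrl 4, at 65.7 CPM, lay far from the other 3 Ctrl libraries, at 80.1 to 80.9 CPM. It was the only such library among 34 groups of 4 tested over the members in both tables, where chance gives about 1 in 20.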

How the results depend on the processing

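No member passed under any alternative on counts or FPKM. The number of genes past the threshold, 2, became 60 with DESeq2, 8 without a low-count filter, 6 with the replicate block, 4 with limma on log2(FPKM + 1) without Ctrl 4, and 0 to 19 when a library was left out (0 without Ctrl 4, 1 without Ctrl 1, SA 2, SA 3 or SA 4, 19 without SA 1); the cause was not tested. Signs turned on FPKM for Cidec (0.51, and 0.56 with a pseudocount of 0.1), Pparg (0.015 and 0.24) and Rxra (-0.21 with either pseudocount, -0.37 without Ctrl 4), with the same values without the FPKM filter. G0s2 turned to -0.25 without Ctrl 4 and Plin3 ranged from -0.27 without Ctrl 4 to 0.051 without Ctrl 1. Correlations with Pparg turned for Plin2 (-0.0316) and Plin3 (-0.197) without the 2 farthest libraries, for Plin3 (-0.0689) and Pnpla2 (0.0800) without Ctrl 1 (up to 0.580 without Ctrl 4 and down to -0.726 without SA 2, in that order), and for Plin5 (0.736) and Pnpla2 (0.345) on FPKM. On all 15 count alternatives Cidec, Cidea, Pparg, Plin2 and Plin4 stayed negative and Plin5 positive. Replicate numbers are shared by the groups, and correlations of same-numbered deviations were -0.0230, -0.0198, 0.219 and -0.218. These values gave no consistent sign of a pairing but cannot exclude one with 4 libraries per group. The block on replicate number changed no member's call.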
